A study of Rattus norvegicus with 141 samples.

Results

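The genes described here are the chemokines and chemokine receptors of the rat. They were chosen by gene symbol alone: every gene of the deposited tables whose name is Ccl, Ccr, Cxcl, Cxcr, Xcl, Xcr, Cx3cl, Cx3cr or Ackr followed by a number. The rule took 55 of 30562 genes, made up of 34 ligands, 17 signalling receptors and 4 atypical receptors. PolyA RNA was sequenced from 3 tissues (liver, stomach, duodenum) of Sprague-Dawley rats, adult, genotype WT and of both sexes, all fed standard chow, that received vehicle or microplastics at a low dose of 5 mg/kg or a high dose of 50 mg/kg. Polymer, route and length of dosing: not given in the sources used here. Each combination of tissue, sex and dose held 8 libraries, except 7 for duodenum of vehicle females and 6 for liver of high-dose females, 141 in all. Each library came from several pieces of 1 frozen tissue pulverised together, of varying mass, and the labels put each in 1 of 3 batches. Nothing in the labels ties each library of a group to an animal of its own. The p-values therefore measure only the spread between these libraries, which may be technical.

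Chemokines are small secreted proteins that steer white blood cells along concentration gradients, and their receptors are G protein-coupled receptors on the migrating cells. Atypical receptors bind the same ligands without classical G protein signalling and so shape or clear the gradients. In the gut and liver the system is known for homing of lymphocytes (Ccl25 with Ccr9, Ccl28 with Ccr10), for the layout of lymphoid tissue (Ccl19 and Ccl21 with Ccr7, Cxcl13 with Cxcr5), for recruitment of monocytes (Ccl2 with Ccr2) and of eosinophils (Ccl11 and Ccl24 with Ccr3), and for the interferon-induced ligands of Cxcr3 (Cxcl9, Cxcl10 and Cxcl11).

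The smallest and largest library held 6153370 and 23717000 estimated counts in liver, 4947830 and 23940200 in stomach, and 5470040 and 25503800 in duodenum. The tissue labels matched the defining genes: in vehicle libraries the median summed level of the hepatocyte list was 111537 counts per 1000000 (CPM) in liver against 77.2 in stomach and 3325 in duodenum. The gastric epithelium list stood at a median of 134451 CPM in stomach against 1.53 in liver and 12.1 in duodenum, and the enterocyte list at 5437 CPM in duodenum against 766 in liver and 139 in stomach. The share of counts in 167 ribosomal protein genes differed with dose in the 2 gut tissues: 2.99% ± 0.91 (SD, n = 16) in vehicle stomach against 4.45% ± 1.70 (SD, n = 16) at the high dose, and 3.87% ± 0.68 (SD, n = 15) against 5.55% ± 1.54 (SD, n = 16) in duodenum, while liver stood at 1.47% ± 0.47 (SD, n = 16) and 1.53% ± 0.60 (SD, n = 14). Because these are bulk samples, fewer cells of a type and less RNA per cell cannot be told apart.

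All 55 genes matched an entry of the RefSeq rat table, and 41 had a promoter sequence in the RefSeq promoter table of build GRCr8, each 250 bases before to 50 bases after the start. This build is not the one the counts were made on, so it serves here for sequence and gene order only. Many of the genes sit side by side: on chromosome 10 as Ccl2, Ccl7, Ccl11, Ccl12 and Ccl1 and as Ccl5, Ccl9, Ccl6, Ccl3 and Ccl4, on chromosome 14 as Cxcl11, Cxcl10 and Cxcl9 and as Cxcl2, Cxcl1, Cxcl3 and Cxcl6, and on chromosome 8 as Ccr9, Cxcr6, Xcr1, Ccr3 and Ccr2. The 3 sequences that follow are the promoters of the gene that stood furthest above both other tissues in duodenum (Ccl25), in stomach (Cxcl17) and in liver (Ccl9). Capitals mark matches to TATAAA on either strand, which reads TTTATA on the other strand. They lie at chr12:7504985-7505284 on the plus strand, chr1:90124486-90124785 on the minus strand and chr10:68868828-68869127 on the minus strand.
Ccl25: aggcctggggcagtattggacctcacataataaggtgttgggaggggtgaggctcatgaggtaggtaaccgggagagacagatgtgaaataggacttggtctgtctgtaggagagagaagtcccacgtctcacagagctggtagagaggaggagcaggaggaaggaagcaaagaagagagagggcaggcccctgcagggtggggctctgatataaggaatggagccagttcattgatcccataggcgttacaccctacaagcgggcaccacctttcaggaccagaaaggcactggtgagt
Cxcl17: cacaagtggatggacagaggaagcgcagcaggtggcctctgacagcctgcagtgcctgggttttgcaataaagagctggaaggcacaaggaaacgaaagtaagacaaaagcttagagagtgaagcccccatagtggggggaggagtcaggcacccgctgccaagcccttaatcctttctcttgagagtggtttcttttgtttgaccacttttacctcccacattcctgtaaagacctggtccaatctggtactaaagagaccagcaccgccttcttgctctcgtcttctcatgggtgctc
Ccl9: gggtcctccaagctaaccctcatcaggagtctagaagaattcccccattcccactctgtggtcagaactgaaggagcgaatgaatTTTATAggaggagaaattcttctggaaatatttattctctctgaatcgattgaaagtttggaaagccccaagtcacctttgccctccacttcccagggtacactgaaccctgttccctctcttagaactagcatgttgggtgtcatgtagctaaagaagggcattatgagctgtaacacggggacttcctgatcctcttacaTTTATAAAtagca

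The next 3 are the promoters of the neighbours Cxcl9, Cxcl10 and Cxcl11, which were all higher in liver than in stomach. They are the Cxcr3 ligands, at chr14:16006916-16007215, chr14:15988816-15989115 and chr14:15973478-15973777, all on the plus strand. Capitals mark matches, on either strand, to TATAAA, to GGANTTTCC (the letters searched for NF-kB), to GAAANNGAA (interferon-stimulated response element core) and to TTCNNNGAA (gamma-activated site).
Cxcl9: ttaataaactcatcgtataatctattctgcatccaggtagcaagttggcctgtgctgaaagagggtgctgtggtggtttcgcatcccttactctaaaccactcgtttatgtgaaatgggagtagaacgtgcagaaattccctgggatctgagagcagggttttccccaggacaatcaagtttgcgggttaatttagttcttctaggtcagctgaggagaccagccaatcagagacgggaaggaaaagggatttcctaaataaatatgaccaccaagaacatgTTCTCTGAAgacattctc
Cxcl10: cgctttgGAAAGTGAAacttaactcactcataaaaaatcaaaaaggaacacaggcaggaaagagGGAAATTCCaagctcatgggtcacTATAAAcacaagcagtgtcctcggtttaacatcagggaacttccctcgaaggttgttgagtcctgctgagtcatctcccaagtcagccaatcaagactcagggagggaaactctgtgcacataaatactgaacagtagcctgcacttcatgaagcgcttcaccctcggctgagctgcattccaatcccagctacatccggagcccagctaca
Cxcl11: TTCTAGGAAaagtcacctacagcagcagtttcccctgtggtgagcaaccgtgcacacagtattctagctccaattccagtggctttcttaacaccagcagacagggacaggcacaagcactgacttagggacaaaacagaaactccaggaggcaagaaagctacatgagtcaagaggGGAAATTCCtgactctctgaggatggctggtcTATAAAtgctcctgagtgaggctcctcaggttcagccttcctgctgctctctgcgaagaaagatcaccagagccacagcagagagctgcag
Cxcl10 and Cxcl11 shared the run GGAAATTCC, which is GGANTTTCC read on the other strand. GGANTTTCC was found in 5 of the 41 chemokine promoters (12.2%; Ccr3, Cxcl1, Cxcl6, Cxcl10 and Cxcl11) and in 1.26% of all 27457 promoters. TATAAA was found in 11 of 41 (26.8%) against 14.3% of all, TTCNNNGAA in 6 of 41 (14.6%) against 8.68%, and GAAANNGAA in 3 of 41 (7.32%) against 9.5%. Such a match is a description of the letters and shows no binding.

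Not every gene could be tested. A low-count filter kept 25 of the 55 in liver, 33 in stomach and 37 in duodenum. Of the 55, 19 were tested in all 3 tissues, 12 in 2 and 14 in 1. The other 10 (Ccl1, Ccl3, Ccl12, Ccl17, Ccl26, Ccr4, Ccr8, Cxcl2, Cxcr1 and Xcl1) were too low in each tissue. Cxcr1, a neutrophil receptor, had 0 counts in all liver libraries, 1 in stomach and 42 in duodenum. A count of 0 over the vehicle liver libraries together allows a level of up to 0.0158 CPM, counting error only.

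Many chemokine genes differed in level between the 3 tissues. In vehicle libraries, 8 of the 37 genes tested jointly were called higher in liver than in both gut tissues, 3 in stomach and 8 in duodenum (edgeR quasi-likelihood test, adjusted p under 0.05 and a log2 difference of at least 1). Liver also stood lowest for 15 genes, stomach for 4 and duodenum for 3, and only Ccr2, Cxcl13 and Cxcl14 fell in none of these classes. The classes were counted for the chemokine genes alone, so no share of all genes stands beside them and they serve as a description only. The 15 include genes near 0 in liver, such as Ccr10 with 1 count and Cxcl17 with 4 counts over the vehicle libraries. By pair of tissues, 12 of 37 were higher in duodenum than in stomach, where 16.8% of all genes were, and 6 were higher in stomach, where 17.9% were. Against liver, 22 were higher in duodenum (28% of all genes) and 16 in stomach (27.1%), while 10 were higher in liver than in duodenum (18%) and 11 higher in liver than in stomach (19.1%). The median absolute log2 difference of the 37 genes was 2.57 between liver and duodenum and 2.08 between liver and stomach, beside 0.89 over all genes in both comparisons. Between stomach and duodenum it was 0.97 beside 0.65. Some of the 37, such as Ccl25, Cxcl17 and Cxcr2, passed the within-tissue filter in 1 tissue only. Large differences of such genes follow in part from the filter, which all genes went through too. Whether the 37 stand above all genes without them was not tested.

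**Figure D1:**
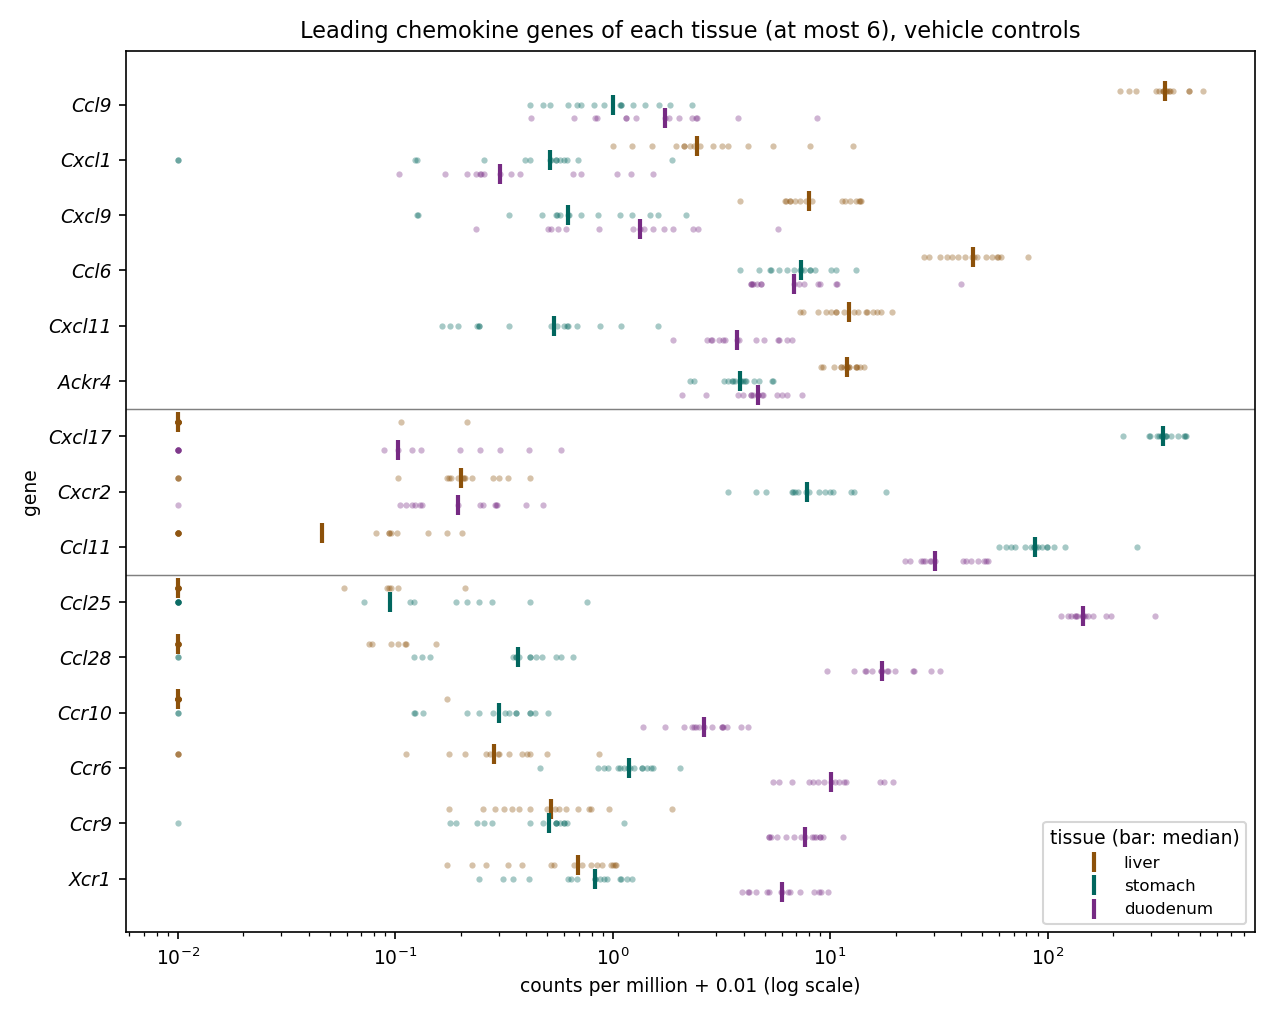
Levels of the leading chemokine genes of each tissue, at most 6, among those called higher there than in both others, in vehicle libraries. Each point is 1 library in CPM (log axis, with the small constant named on the axis added so that 0 can be drawn), bars are medians, and rules separate the liver, stomach and duodenum genes. Ccl9, Cxcl17 and Ccl25 show medians of 348, 340 and 145 CPM in their tissue and at most 1.73 CPM elsewhere.

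Among liver ligands, Ccl9, a monocyte attractant of the CC family, stood furthest apart. Its lowest, median and highest vehicle values were 214, 348 and 521 CPM in liver, 0.406, 0.989 and 2.32 in stomach and 0.409, 1.73 and 8.70 in duodenum. The liver libraries did not overlap with either gut tissue, and the log2 difference was 8.43 ± 0.29 (SE) over duodenum and 9.40 ± 0.30 over stomach. Its neighbour Ccl6, also a CC ligand, had 27, 45.5 and 81.3 CPM in liver, 3.83, 7.30 and 13.1 in stomach and 4.31, 6.83 and 39.9 in duodenum, and differed from duodenum by a log2 of 3.60 ± 0.21. A single duodenum library reached into the liver range. Cxcl12, the stromal ligand that holds Cxcr4-bearing cells in place, was abundant in all 3 tissues, at 282, 352 and 433 CPM in liver, 147, 179 and 254 in stomach and 42, 75.6 and 126 in duodenum. No 2 of these ranges overlapped, and each of its 3 pairwise log2 differences passed the test (2.02 ± 0.11 for liver over stomach, 1.31 ± 0.11 for stomach over duodenum and 3.33 ± 0.12 for liver over duodenum).

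The 3 Cxcr3 ligands differed in their order. Cxcl11 had 7.27, 12.2 and 19.4 CPM in liver, 1.88, 3.71 and 6.68 in duodenum and 0.155, 0.526 and 1.61 in stomach, so that the 3 tissues did not overlap. Cxcl9 had 3.83, 7.99 and 13.9 CPM in liver, 0.227, 1.32 and 5.78 in duodenum and 0.117, 0.614 and 2.15 in stomach. Cxcl10 was lowest in stomach (0.506, 1.35 and 2.7 CPM), and its liver (0.896, 3.06 and 7.96 CPM) and duodenum libraries (2.95, 4.55 and 8.13 CPM) overlapped. The fitted log2 difference of Cxcl10 between liver and duodenum was 0.65 ± 0.21, under the fold asked for, with the CPM medians in the other order. The 2 measures are scaled differently: the fit uses TMM factors (edgeR's trimmed mean of M-values), while CPM divides by the library total. The part of the scaling in this turn was not tested. With library totals alone the median of all genes moved from -0.03 to -1.1 for liver against stomach and from -0.15 to -1.17 for liver against duodenum. Under that scaling 7 of the 37 genes were higher and 22 lower in liver than in stomach, in place of 11 and 16, and 9 were higher and 24 lower in liver than in duodenum, in place of 10 and 22. None of the genes called with TMM factors changed sign, and 23 of 27 calls against stomach and 31 of 32 against duodenum were kept.

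Cxcl1, a neutrophil attractant, was low in each tissue but called higher in liver, at 0.996, 2.43 and 12.7 CPM against 0, 0.507 and 1.87 in stomach and 0.0938, 0.294 and 1.53 in duodenum. Ackr4, the scavenger of Ccl19, Ccl21 and Ccl25, had 9.10, 12 and 14.3 CPM in liver, 2.26, 3.86 and 5.48 in stomach and 2.06, 4.65 and 7.44 in duodenum. It was the only atypical receptor called highest in liver, and its liver range overlapped neither gut tissue.

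In stomach, Cxcl17, a ligand of mucosal surfaces, had 222, 340 and 433 CPM, against 0, 0 and 0.204 in liver and 0, 0.0928 and 0.567 in duodenum. The log2 difference from duodenum was 11.13 ± 0.23, from low counts in duodenum. Cxcr2, the receptor of Cxcl1 and related neutrophil attractants, had 3.40, 7.85 and 18.1 CPM in stomach, above every vehicle library of liver (at most 0.406) and duodenum (at most 0.469). Its ligand Cxcl1 was highest in liver, so this ligand and its receptor peaked in different tissues. Of the 7 listed neutrophil markers, which include Cxcr2 itself, 2 passed the filter in stomach, Cxcr2 among them. Ccl11, the eosinophil attractant eotaxin, had 59.5, 87.2 and 258 CPM in stomach, 22.1, 30.4 and 53.1 in duodenum and at most 0.193 in liver, where its vehicle libraries held 13 counts in all. Stomach and duodenum did not overlap, with a log2 difference of 1.39 ± 0.15.

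The duodenum genes held 2 whole ligand and receptor pairs. Ccl25, the small-intestinal homing ligand, had 115, 145 and 311 CPM there, 0, 0.0847 and 0.756 in stomach and 0, 0 and 0.199 in liver, a log2 difference of 9.92 ± 0.23 between duodenum and stomach. Its receptor Ccr9 had 5.21, 7.69 and 11.5 CPM in duodenum, 0.167, 0.511 and 1.86 in liver and 0, 0.502 and 1.11 in stomach. For both genes the lowest duodenum library lay above the highest library of the other tissues. Ccl28, the mucosal ligand of Ccr10, had 9.63, 17.4 and 32 CPM in duodenum against 0, 0.357 and 0.645 in stomach. Ccr10 itself had 1.37, 2.63 and 4.2 CPM against 0, 0.291 and 0.493 in stomach, and only 1 count over the 16 vehicle liver libraries, so no fold over liver is given. Again no library of another tissue reached the duodenum range.

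Of the other duodenum genes, Ccr6, the receptor that guides cells to Ccl20, had 5.45, 10.1 and 19.5 CPM against at most 2.03 in stomach and 0.853 in liver. Xcr1, a receptor of cross-presenting dendritic cells, had 3.92, 5.97 and 9.76 CPM against at most 1.22 in stomach and 1.02 in liver. Cxcr6, the receptor of Cxcl16, had 1.36, 3.52 and 5.98 CPM, and the highest stomach library (1.93 CPM) overlapped its range. Ccl24, a second eosinophil attractant, had 11.1, 16.5 and 22.5 CPM in duodenum, 2.81, 4.60 and 11 in stomach and 1.94, 3.48 and 7.98 in liver. So the eosinophil ligands Ccl11 and Ccl24 were highest in different gut tissues.

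Several epithelial and stromal ligands did not separate the gut tissues. Cx3cl1 (fractalkine, a membrane-bound ligand of Cx3cr1) had 11.4, 17.2 and 21.4 CPM in stomach and 10.2, 15.8 and 25 in duodenum (log2 difference -0.02, edgeR adjusted p = 0.918), against 0.163, 0.611 and 1.57 in liver. Cxcl16 had 28.6, 38.2 and 53.9 CPM in stomach and 23.7, 43 and 76.9 in duodenum (-0.23, adjusted p = 0.114), against 2.67, 4.04 and 7.68 in liver. Ccl21, the lymphatic ligand of Ccr7, differed between the gut tissues by 0.08 (adjusted p = 0.727) and Ccl20 by -0.31 (adjusted p = 0.363). For Cx3cl1 and Cxcl16 every gut library lay above every liver library. The atypical receptors again differed among themselves: Ackr3, a scavenger of Cxcl12, was lower in liver (1.36, 2.47 and 4.91 CPM) than in stomach (32.9, 41.3 and 49.6) and duodenum (25.9, 34.6 and 49.6), so it was lowest in the tissue where its ligand was highest.

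In vehicle livers, 6 of the 25 tested genes differed between the sexes, 5 higher in females and 1 lower, where 22.8% of all genes did. Cxcl14, a ligand expressed by epithelia and stroma, gave the clearest difference. Its lowest, median and highest values were 3.12, 4.50 and 6.74 CPM in the 8 female libraries and 0.214, 1.22 and 2.75 in the 8 male libraries. The sexes did not overlap, and the log2 difference was 2.19 ± 0.31 (SE; edgeR adjusted p = 3.39e-07), with 3.63 within batch 1 and 1.90 within batch 2. Fitted on the vehicle livers alone the difference was 2.33 (edgeR adjusted p = 6.32e-05). The dosed livers held the same order: 1.99, 4.14 and 7.97 CPM in low-dose females against 0.137, 0.793 and 1.86 in low-dose males, and 4.55, 6.26 and 9.62 in high-dose females against 0.490, 1.00 and 2.75 in high-dose males. The female and male libraries did not overlap at either dose.

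The atypical receptors moved in both directions between the sexes. Ackr2, a scavenger of inflammatory CC ligands, had 0.996, 1.44 and 3.60 CPM in females and 0.186, 0.917 and 1.42 in males, a log2 difference of 1.22 ± 0.34 (edgeR adjusted p = 0.00694). Ackr3 was the single gene lower in females, with 1.36, 2.02 and 2.98 CPM against 2.23, 3.06 and 4.91 (-0.74 ± 0.23, adjusted p = 0.0185). The ranges overlapped for both receptors. Within batch 1 and batch 2 the differences were 1.47 and 0.89 for Ackr2, and -1.14 and -0.27 for Ackr3.

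The 3 others were smaller. Ccl4, an inflammatory CC ligand, had 1.02, 1.33 and 1.83 CPM in females and 0.186, 0.867 and 1.49 in males (0.89 ± 0.30, edgeR adjusted p = 0.0271). Ccr2, whose reads may be shared with related genes so that its values are uncertain, had 0.650, 2.11 and 3.70 CPM against 0.489, 1.08 and 1.84 (0.79 ± 0.28, adjusted p = 0.0369). Cxcl11 had 11.5, 14.7 and 19.4 CPM against 7.27, 9.82 and 15.7 (0.48 ± 0.17, adjusted p = 0.0382). All 3 overlapped between the sexes. Over 46 fits that each left out 1 liver library, Cxcl14 and Ackr2 passed in every one, Ackr3 missed in 1, Ccl4 in 4, and Ccr2 and Cxcl11 in 9 each. Sex and batch were not balanced, since the vehicle livers of batch 3 were all male. Without batch 3, Cxcl14, Ackr2 and Ccl4 kept their calls. Ackr3 (-0.63, edgeR adjusted p = 0.0561), Ccr2 (0.73, adjusted p = 0.0784) and Cxcl11 (0.49, adjusted p = 0.0659) then lost theirs.

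**Figure D2:**
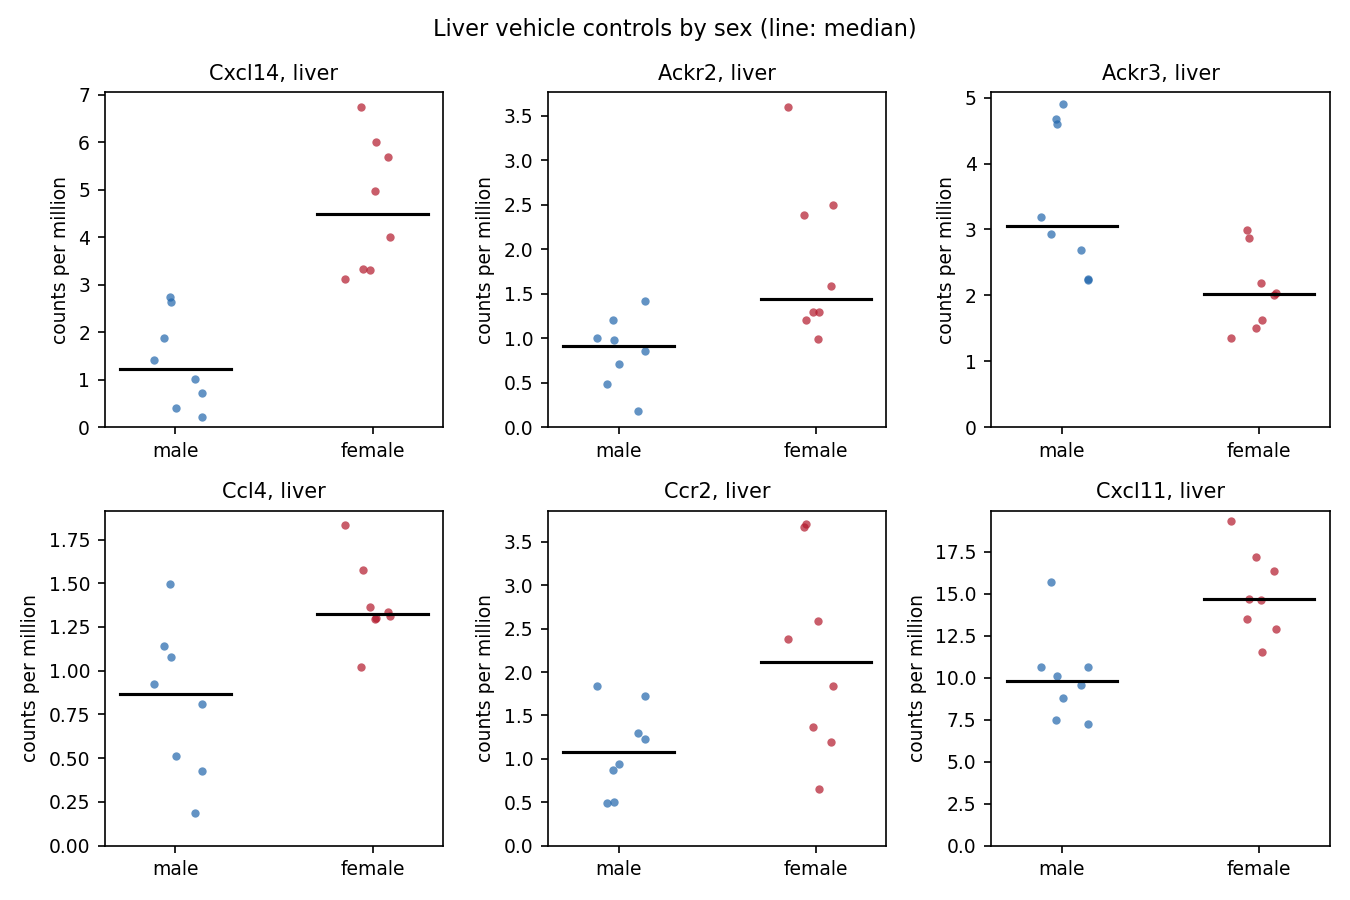
The 6 chemokine genes that differed between male and female vehicle livers, in CPM on linear axes that start at 0. Each point is 1 library (8 per sex) and the line is the median. Cxcl14 shows 2 ranges that do not meet, 0.214 to 2.75 CPM in males and 3.12 to 6.74 CPM in females, while the other 5 genes overlap.

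Of 56 tested genes in 4 other lists of the pathway, 12 (21.4%) differed between the sexes in liver, near the 22.8% of all genes. Of 21 tested signal transduction genes, 2 were higher in females (Grk6 by a log2 of 0.31 and Grk2 by 0.27, receptor kinases; list median 0.27, all genes 0.00). Of 16 interferon targets 3 were higher (Irf1 by 0.81 and Ifit2 by 0.41; list median 0.07). Of 12 tested cytokine and adhesion genes 4 were higher, among them the alarmin Il33 (0.86), and 1, the adhesion molecule Icam1 (-0.80), was lower (list median 0.32). Of 7 tested relatives of the family 2 were lower, the chemoattractant Rarres2 (-0.79) and Mif (-0.67; list median -0.48). Markers of several cell types moved with sex too: 5 of 11 macrophage markers were higher in females (Cd163 by 0.81 and Mrc1 by 0.48), with summed levels of 367 to 660 CPM against 259 to 553 in males. None of 5 Kupffer cell markers passed the test, and 5 of 6 hepatocyte markers were lower (Cyp2c11 by -11.74). The pancreatic acinar list summed to 10.8 to 320 CPM in female and 0 to 1.22 in male vehicle livers (Cpa1, 10.68). The part of these in the chemokine differences was not tested.

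In stomach and duodenum no chemokine gene differed between the sexes in vehicle libraries by edgeR, where 0.172% and 0.079% of all genes did. At an unadjusted p under 0.05 there were 3 of 33 in stomach (9.09%, beside 7.31% of all genes) and 8 of 37 in duodenum (21.6%, beside 5.3%), and DESeq2 and limma's voom also called 0. Cxcl14 differed by a log2 of 0.49 in stomach (edgeR adjusted p = 0.338). The next closest there were Cx3cl1 (0.33, adjusted p = 0.508) and Ccl11 (-0.38, adjusted p = 0.679). In duodenum the closest were Ccl6 (-0.94, adjusted p = 0.319), Ackr3 (-0.26, adjusted p = 0.330) and Cxcl13, the B cell ligand (1.18, adjusted p = 0.692). Whether the liver difference of a gene exceeded that in the gut was not tested.

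At the high dose, Ccl6 was the only chemokine gene called in stomach over both sexes, 1 of 33 tested, where 4.49% of all genes were called. In males alone it was joined by Ccl2, Ccr3 and Ccl24, 4 of 33, where 7.06% of all genes were. All of these calls were rises. The median log2 change of the 33 genes was 0.13 over both sexes and 0.28 in males, beside -0.01 for all genes in each. The comparisons at both doses, and those within and over the sexes, share their vehicle libraries.

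Ccl6 had 3.83, 7.48 and 13.1 CPM in vehicle males, 5.99, 8.60 and 24 at the low dose and 5.98, 13.3 and 19.9 at the high dose. In females it had 4.68, 6.77 and 10.1, then 6.08, 8.21 and 9.55, then 5.66, 8.81 and 15.1 CPM. The medians were highest at the high dose in both sexes, and the ranges overlapped. The log2 rise was 0.64 ± 0.14 (SE; edgeR adjusted p = 0.0216) over both sexes, with 0.54 within batch 1 and 0.66 within batch 2, and 0.81 ± 0.19 (adjusted p = 0.00923) in males. In females the value was 0.46 ± 0.19 (adjusted p = 0.848), and the difference between the sexes was -0.35 (adjusted p = 0.737), so none was shown. Over 48 fits that each left out 1 library, the call over both sexes was lost once, without high-dose male replicate 4 (adjusted p = 0.0544), and the call in males was never lost.

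The other 3 genes of the male comparison are a monocyte ligand and an eosinophil pair. Ccl2 had 3.17, 4.42 and 9.16 CPM in vehicle males, 3.55, 5.30 and 16.8 at the low dose and 2.99, 9.68 and 17.3 at the high dose, which includes the lowest male value. Ccr3, the eosinophil receptor, had 1.81, 2.42 and 6.21, then 1.3, 3.64 and 12.8, then 2.09, 5.21 and 11 CPM. Its ligand Ccl24 had 2.81, 4.82 and 11, then 3.62, 6.23 and 11.2, then 4.52, 7.48 and 14.3 CPM. Every group of these 3 genes overlapped with vehicle. The log2 rise in males was 0.97 ± 0.26 for Ccl2 (edgeR adjusted p = 0.0199), 1.1 ± 0.32 for Ccr3 (adjusted p = 0.0310) and 0.64 ± 0.21 for Ccl24 (adjusted p = 0.0494).

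Within batch 1 and batch 2 the male values were 0.85 and 1.29 for Ccl2, 1.18 and 1.19 for Ccr3, and 0.77 and 0.73 for Ccl24. Ccl2 missed the threshold in 3 of the 48 fits, those without vehicle male replicate 4, high-dose male replicate 2 or high-dose male replicate 4. Ccr3 missed it in 4 and Ccl24 in 29. In females Ccl2 had 4.10, 5.13 and 8.55 CPM with vehicle and 4.50, 5.47 and 9.87 at the high dose, and Ccr3 had 1.36, 2.7 and 5.39 against 1.18, 3.56 and 7.09. Their female and male changes differed by -0.79 (Ccl2, edgeR adjusted p = 0.633), -0.82 (Ccr3, adjusted p = 0.664) and -0.40 (Ccl24, adjusted p = 0.728). A difference between the sexes was therefore not shown for any of the 4 genes: 0 of 33 passed that test, where 0.0% of all genes did, with 2 of 33 at an unadjusted p under 0.05 (6.06%, beside 7.84% of all genes).

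**Figure D3:**
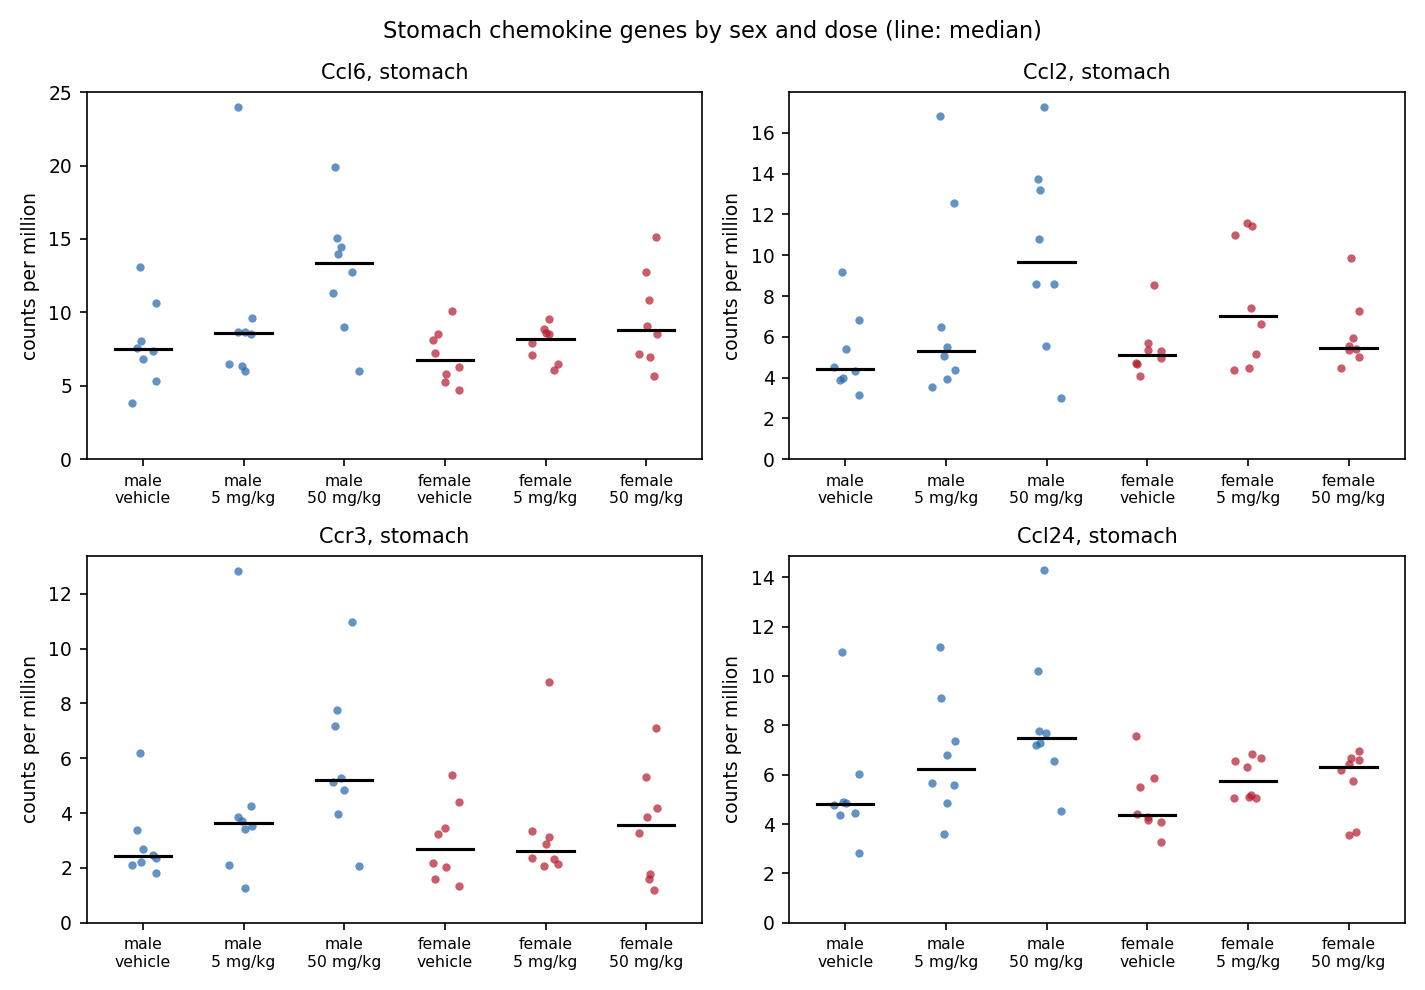
Ccl6, Ccl2, Ccr3 and Ccl24 in stomach by sex and dose, in CPM on linear axes that start at 0. Each point is 1 library (8 per group) and the line is the median. Male medians run 7.48, 8.60 and 13.3 CPM for Ccl6 and 2.42, 3.64 and 5.21 for Ccr3 from vehicle to high dose, with overlapping points throughout.

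The ribosomal protein share was also higher at the high dose, at 2.71% ± 0.50 (SD, n = 8) in vehicle male stomach and 5.04% ± 1.95 (SD, n = 8) at the high dose. Because this share and the dose rose together, a fit with the share as a covariate cannot tell them apart. With that share as a covariate no chemokine gene passed, where 0 of all genes did in males and 1 did over both sexes. The male value was then 0.35 for Ccl6, -0.08 for Ccl2, 0.78 for Ccr3 and 0.11 for Ccl24, and Ccl6 over both sexes was 0.35 (edgeR adjusted p = 0.404). With 3 surrogate variables 0 passed as well, beside 0 of all genes. The male values were then 0.35 for Ccl6, 0.03 for Ccl2, 1 for Ccr3 and 0.13 for Ccl24. With no batch term 0 passed too, beside 3 of all genes in males and 4 over both sexes. The male values stayed about as large, at 0.76, 1.02, 1.06 and 0.65 in the same order.

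Markers of other cells moved with the male high dose in part. Of 10 tested macrophage markers 4 rose (Lyz2 by a log2 of 0.70 and C1qc by 0.50; list median 0.27), with summed levels of 155 to 325 CPM with vehicle and 288 to 452 at the high dose. Of 3 tested eosinophil markers only Ccr3 itself passed, and the list summed to 6.79 to 15.5 against 9.18 to 20.1 CPM. Of 8 tested mast cell markers Fcer1a rose (1.05), while the list summed to 149 to 417 against 124 to 237 CPM. The 7 tested pancreatic acinar markers were all positive with none past the test (list median 2.21), and none of 7 gastric epithelium, 5 T and NK cell or 2 neutrophil markers passed. Their part in the chemokine changes was not tested. In the pathway 3 of 62 tested genes passed (4.84%, beside 7.06% of all genes). Of 10 tested relatives 2 rose (the platelet chemokine Pf4 by 0.65 and Rarres2 by 0.61; list median 0.34), with 0 of 23 signal transduction genes (0.07), 0 of 13 cytokine and adhesion genes (0.14) and 1 of 16 interferon targets (Psmb8, 0.64; list median 0.18).

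Elsewhere in stomach no gene of the family passed by edgeR: 0 of 33 in high-dose females and 0 at the low dose over both sexes or within either, where 0.0% of all genes were called in each. At an unadjusted p under 0.05 there were 2, 4, 3 and 2 of 33 for high-dose females, the low dose over both sexes, low-dose males and low-dose females, beside 5.81%, 6%, 6.88% and 2.87% of all genes, and DESeq2 and voom called 0. In high-dose females the 3 closest were Cx3cl1 (-0.35), Ccl6 and Ccl21 (0.41), each with adjusted p = 0.848. At the low dose over both sexes they were Ccl2 (0.48), Ccl6 (0.34) and Ackr3 (0.16). In low-dose males they were Cxcl14 (0.59, edgeR adjusted p = 0.559), Ackr1 (-0.48) and Ccl6 (0.39), and in low-dose females Ccl9 (1.15), Ccl20 (0.57) and Ccl2 (0.49). The low dose did not differ between the sexes for any of the 33 genes (0.0% of all genes), with 2 at an unadjusted p under 0.05 (6.06%, beside 2.87% of all genes).

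In duodenum a single gene of the family was called at the high dose, and it was lower: Cx3cl1, 1 of 37 tested, where 16.3% of all genes were called. Cx3cl1 had 10.2, 15.8 and 25 CPM in the 15 vehicle libraries, 9.30, 12.7 and 18.5 in the 16 low-dose libraries and 4.75, 11.7 and 19.3 in the 16 high-dose libraries. Males had 10.2, 17.3 and 25, then 9.30, 13.1 and 18.5, then 5.02, 11.2 and 19.3 CPM. Females had 12.9, 15.2 and 20.5, then 11, 12.6 and 18.5, then 4.75, 12 and 15.5 CPM. The median was lower at each higher dose in both sexes, and the groups overlapped. The log2 change over both sexes was -0.61 ± 0.14 (SE; edgeR adjusted p = 0.0104), with -0.51 within batch 1 and -0.85 within batch 2.

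Within each sex Cx3cl1 did not pass, at -0.69 in males (edgeR adjusted p = 0.0746) and -0.52 in females (adjusted p = 0.322), nor at the low dose (-0.37, adjusted p = 0.257). All 47 fits that each left out 1 library kept the call, with values from -0.66 to -0.54. Its receptor Cx3cr1, found on macrophages and some lymphocytes, had 5.29, 8.74 and 19.2 CPM in vehicle males against 6.69, 9.77 and 14.3 at the high dose, and 4.89, 6.69 and 9.51 against 5.16, 8.14 and 10.9 in females, and was not called. With the ribosomal share fitted as a covariate, the change of Cx3cl1 was -0.21 (adjusted p = 0.99), and with 3 surrogate variables -0.28 (adjusted p = 0.856). The 6 tested enterocyte markers were all negative at the high dose with none past the test (list median -0.64, all genes -0.02), with summed levels of 2202 to 13874 CPM with vehicle and 1662 to 8327 at the high dose, and their part in the change was not tested.

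**Figure D4:**
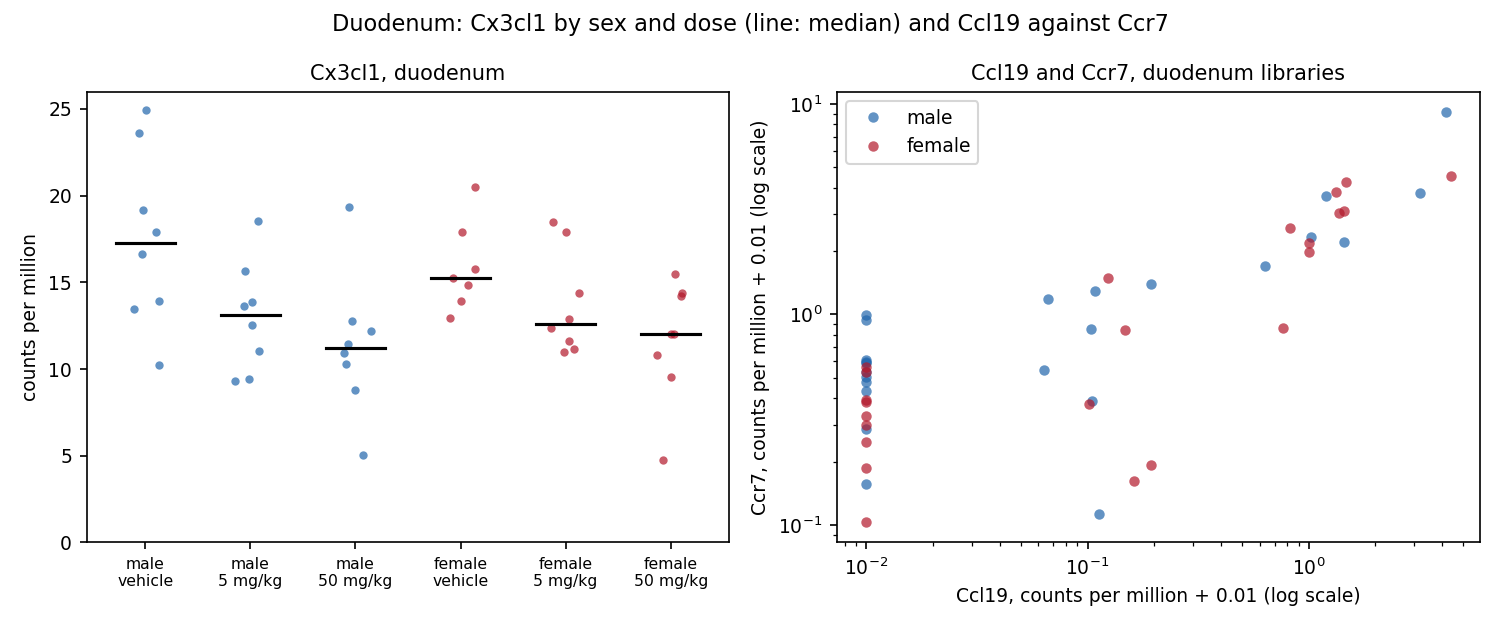
Duodenum: Cx3cl1 by sex and dose in CPM (1 point per library, line at the median), and Ccl19 against Ccr7 in CPM on log axes with a small constant added so that 0 can be drawn (1 point per library). Cx3cl1 medians run from 17.3 to 11.2 CPM in males and from 15.2 to 12 CPM in females between vehicle and high dose, and 15 libraries with Ccl19 at 0.622 CPM or more stand apart from 32 at or near 0.

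The next closest genes at the high dose were Ccl5, a T cell and NK cell ligand (-0.67 ± 0.25, edgeR adjusted p = 0.0595), and Ccl2 (0.39 ± 0.15, adjusted p = 0.0722). DESeq2 called 2 genes here, beside 3015 of all genes. The median log2 change of the 37 genes was 0.09, beside -0.02 for all genes. No gene of the family passed in duodenum in males or females alone at the high dose, or at the low dose over both sexes or within either, where 0.0% of all genes were called in each. At an unadjusted p under 0.05 there were 4, 4, 5, 4 and 3 of 37 in these 5 comparisons by edgeR, beside 24%, 13.5%, 14%, 9.61% and 7.1% of all genes, and DESeq2 called 1 in high-dose males (1010 of all genes) and 0 in the others. The closest were Ccl2 (0.54) and Ccr3 (0.73) besides Cx3cl1 in high-dose males, Ccl5 (-0.92) and Ccl6 (0.61) besides Cx3cl1 in high-dose females, and Ccl20 (-1.05), Ccr3 (0.66) and Cx3cl1 at the low dose. In low-dose males they were Ackr3 (-0.20), Cx3cl1 (-0.51) and Xcr1 (0.47), and in low-dose females Ccl9 (-1.39), Ccr9 (-0.29) and Cxcl16 (-0.39). Neither dose differed between the sexes for any of the 37 genes (0.0% of all genes at either dose), with 2 and 4 at an unadjusted p under 0.05 for the high and low dose (5.41% and 10.8%, beside 1.99% and 4.1% of all genes).

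In 4 other lists of the pathway, 10 of 63 tested genes (15.9%) were called in duodenum at the high dose, in both directions and near the 16.3% of all genes. Of 23 tested signal transduction genes 1 rose and 3 fell (Ptk2b by 0.31 and Grk2 by 0.14 on the log2 scale; list median -0.13). Of 10 relatives 1 rose, Cklf (0.47), and 2 fell, among them the orphan-named receptor Gpr35 (-0.30; list median -0.04). Of 14 cytokine and adhesion genes 1 rose, Il18 (0.40), and 1 fell, Tnfaip3 (-0.32; list median -0.18), and of 16 interferon targets 1 fell, Rsad2 (-1.90; list median -0.04). Of 10 macrophage markers Lyz2 rose (0.75), of 6 mast cell markers Fcer1a (0.78) and of 13 T and NK cell markers Cd3g (0.80), while of 6 plasma cell markers Mzb1 rose (0.51) and Prdm1 fell (-0.68). Such calls cover 1 or 2 markers of a list, where 16.3% of all genes were called. A change of any of these cell types as a whole was not tested.

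In liver no chemokine gene passed at either dose, over both sexes or within a sex: 0 of 25 in each of 6 comparisons, where 0.0% of all genes were called. At an unadjusted p under 0.05 there were 2 (high dose) and 1 (low dose) over both sexes, beside 3.4% and 2.07% of all genes, and 2 and 1 in high-dose males and females, beside 4.87% and 1.52%. There were 3 in low-dose males and 4 in low-dose females, 12% and 16% of the 25, beside 24.3% and 7.11% of all genes. DESeq2 and voom called 0 of the 25 in all 6, while over all genes they called 601 and 574 in low-dose males and 0 in the other 5. The 3 closest over both sexes at the high dose were Cxcl12 (-0.22), Ccr2 (0.52) and Ackr2 (-0.44), and at the low dose Cxcl13 (-0.70), Ccl4 (0.36) and Cxcl10 (0.54). Within the sexes they were Ccr2 (0.90), Cxcl12 (-0.20) and Ccl4 (0.40) in high-dose males, Cxcl12 (-0.24), Ackr2 (-0.62) and Cx3cl1 (0.50) in high-dose females, Cxcl13 (-1.20), Ccl9 (-0.35) and Ccl2 (-1.18) in low-dose males, and Cxcl10 (1.35), Ccl2 (1.33) and Ackr2 (-0.73) in low-dose females. Without low-dose female replicate 1, Cxcl10 at the low dose over both sexes was -0.07.

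In liver the low-dose change was also tested for a difference between the sexes. Here 2 of 25 genes passed, near the 7.84% share over all genes, and several other fits described below lost both. At an unadjusted p under 0.05 there were 6 (24%), beside 31.8% of all genes. Ccl2 had 0.214, 0.789 and 1.11 CPM in vehicle males, 0, 0.323 and 0.827 in low-dose males, 0.204, 0.666 and 1.20 in vehicle females and 0.481, 0.778 and 10.6 in low-dose females. The male median was lower and the female median little changed, with 1 female library far above the rest. The female change exceeded the male change by a log2 of 2.51 ± 0.74 (edgeR adjusted p = 0.0407), while neither change passed by itself (1.33 in females, adjusted p = 0.607, and -1.18 in males, adjusted p = 0.194). Without low-dose female replicate 1 the difference for Ccl2 was 1.30 (adjusted p = 0.101).

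Ccl9 had 214, 333 and 521 CPM in vehicle males, 189, 293 and 386 in low-dose males, 255, 359 and 448 in vehicle females and 330, 401 and 540 in low-dose females. Its groups overlapped, and the difference between the sexes was 0.61 ± 0.19 (edgeR adjusted p = 0.0461). Both calls were lost in 5 other fits, and also in batch 2 alone (edgeR adjusted p = 0.0604 for Ccl2 and 0.0617 for Ccl9). DESeq2 gave no adjusted p for Ccl2. In 3 of the 5 the differences stayed near their size. They were 2.71 for Ccl2 and 0.66 for Ccl9 with no batch term, and 2.36 and 0.67 without batch 3. With a replicate block they were 2.10 and 0.61 (edgeR adjusted p = 0.0574 and 0.0587). With 3 surrogate variables they were 1.24 and 0.08, and when the share of ribosomal protein counts was a covariate 2.02 and 0.17. That share was 1.85% ± 0.68 (SD, n = 8) in low-dose females and 1.08% ± 0.25 (SD, n = 8) in low-dose males, against 1.39% and 1.56% in vehicle females and males. Leaving out 1 library lost the Ccl2 call in 15 of 46 fits and the Ccl9 call in 20 of 46. At the high dose 0 of 25 genes differed between the sexes (0.0% of all genes), with 0 at an unadjusted p under 0.05 (2.34% of all genes).

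The library that carried Ccl2, low-dose female replicate 1 of batch 2, held the highest value among the 46 liver libraries for 7 genes of the family. Ccl2 stood at 10.6 CPM there, against at most 1.41 elsewhere, and Cxcl10 at 55.1 CPM, against at most 7.96. Cxcl11 (28.1 CPM against 21.8), Ccl4 (2.86 against 2.42), Ccl7 (0.804 against 0.335), Cxcl2 (0.536 against 0.137) and Cxcl3 (0.0894 against 0.0658) were highest there as well. Its total of 11190000 counts and ribosomal protein share of 2.12% lay within the range of the liver libraries. Of the 56 tested genes in the 4 other pathway lists, 1 passed in this contrast (1.79%, beside 7.84% of all genes), the relative Rarres2 (0.91). None of the 16 interferon targets among them passed, while 15 were positive (list median 0.41, all genes -0.05). Of 6 hepatocyte markers Ttr passed (0.80), and of 11 macrophage markers none.

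Whether a ligand and its receptor varied together across libraries was examined for 24 listed pairs, 33 tests over the 3 tissues, on log2 CPM after the group and batch means were removed (Pearson's r, two-sided permutation test with 100000 resamples, adjusted over the 33). After adjustment 8 passed, 6 of them in duodenum. In duodenum the libraries were divided into 2 clusters by Ccl19, which is made by stromal and dendritic cells of lymphoid tissue. The cut was set at the largest ratio between neighbouring Ccl19 values above 0, a rule that always gives 2 clusters. It left 32 libraries at 0 to 0.184 CPM, 20 of them at 0, and 15 libraries at 0.622 to 4.36 CPM. The values of the first kind lie at or near 0. The second kind occurred in every group, 1, 2 and 3 libraries in vehicle, low-dose and high-dose males and 4, 2 and 3 in females, and made up 2 of 17, 11 of 23 and 2 of 7 libraries of batches 1, 2 and 3.

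The same libraries held more of the other lymphoid genes, as a description. Ccr7, the receptor of Ccl19 and Ccl21 on naive T cells and mature dendritic cells, had 0.853, 3.02 and 9.11 CPM in the 15 libraries against 0.0933, 0.481 and 1.47 in the 32. Cxcl13 had 3.79, 8.85 and 15.8 against 0.585, 2.61 and 6.08 CPM, and its B cell receptor Cxcr5 had 0.356, 1.34 and 2.97 against 0, 0.321 and 0.787. Ccl21 had 38.8, 70.1 and 160 against 13.8, 26.8 and 53.7 CPM. The summed B cell and follicle markers were 30.6, 75.0 and 131 against 10.4, 18.6 and 36.2 CPM, and the epithelial ligand Ccl25 was 115, 149 and 332 against 119, 156 and 311. All of the lymphoid genes overlapped at the edges, and Ccl25 covered nearly the same range in both.

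Because of these clusters the duodenum relations are given within each, on log2 CPM after the group and batch means were removed and again without that step, since means taken over both clusters shift the residuals of genes that differ between them. These tests were added after the data had been seen, and the clusters were drawn from Ccl19, a gene of 1 of the pairs. The 28 tests with the means removed (batches included) and the 11 without were adjusted as separate sets. In the 15 libraries Ccl19 and Ccr7 had r = 0.79 with the means removed (rho 0.77, permutation p = 0.00018, adjusted p = 0.00126; 0.62 without the 2 libraries furthest out) and r = 0.81 without that step (rho 0.80, permutation test, adjusted p = 0.00066; 0.70 without 2). No value is given for the 32 libraries, since 20 of them hold no Ccl19 count. Over both clusters within batch 2 the value was 0.90, and within batch 1 it was 0.74, falling to 0.29 without 2 libraries, so there it rested on those.

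Ccl21 and Ccr7 had r = 0.75 in the 15 libraries with the means removed (rho 0.59, permutation test, adjusted p = 0.00504) and 0.77 without that step (adjusted p = 0.00308). In the 32 libraries the values were 0.26 and 0.06 (adjusted p = 0.16 and 0.887). Cxcl13 and Cxcr5 had r = 0.57 in the 15 (permutation test, adjusted p = 0.0456) and 0.37 in the 32 (adjusted p = 0.0587) with the means removed, but 0.19 and 0.02 without that step (adjusted p = 0.806 and 0.917). Their relation within the clusters therefore depends on that step. Cxcl12 and Cxcr4 had r = 0.55 and 0.40 in the 32 libraries with and without the means removed (permutation test, adjusted p = 0.00504 and 0.0399), and 0.20 and 0.14 in the 15 (adjusted p = 0.46 and 0.829). Whether the clusters differed in r was not tested.

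For the last 2 duodenum relations the values also moved with that step. Ccl2 and Ccr2 had r = 0.40 in both clusters with the means removed (permutation test, adjusted p = 0.0456 in the 32 and 0.16 in the 15), and 0.41 and 0.73 without (adjusted p = 0.0399 and 0.00763). Cxcl12 and Ackr3 had r = 0.39 in the 32 and 0.30 in the 15 with the means removed (permutation test, adjusted p = 0.0456 and 0.282), falling to 0.25 and -0.01 without 2 libraries, and 0.43 and -0.07 without that step (adjusted p = 0.0381 and 0.887). Within batch 1 and batch 2 this pair had r = 0.38 and 0.36, and 0.38 and 0.33 without 2 libraries. By Spearman's rho over all 47 duodenum libraries neither pair passed (Ccl2 and Ccr2 rho 0.33, permutation test, adjusted p = 0.102; Cxcl12 and Ackr3 rho 0.29, adjusted p = 0.163), so 6 of the 8 pairs passed by rank. In stomach 1 pair passed. Ccl11 and its eosinophil receptor Ccr3 had r = 0.50 over 48 libraries (rho 0.48, permutation p = 0.00029, adjusted p = 0.00239; 0.42 without 2), with 0.31 within batch 1 and 0.51 within batch 2.

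The other known pairs did not pass. The closest were Ccl11 and Ccr3 in duodenum (r = 0.35, permutation test, adjusted p = 0.0573) and Ccl24 and Ccr3 in stomach (r = 0.29, adjusted p = 0.154). Ccl25 and Ccr9, both highest in duodenum, had r = -0.03 there (permutation test, adjusted p = 0.887), and Ccl20 and Ccr6 had r = -0.26. Cx3cl1 and Cx3cr1 had r between -0.06 and 0.04 in the 3 tissues. Among all pairs of genes of the family, given without a test because such libraries share cells and depth, Ccl2 and Ccl11 had r = 0.69 in stomach and Ccl20 and Cxcl16 had r = 0.73 in duodenum.

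Cxcl12 is also counted as 2 transcripts, and their balance differed between tissues. ENSRNOT00000066670 took 73.5% ± 2.29 (SD, n = 16) of the Cxcl12 estimated counts in vehicle liver, 49.0% ± 7.68 (SD, n = 16) in vehicle stomach and 43.1% in vehicle duodenum (n = 15), the rest going to ENSRNOT00000098665. Liver exceeded stomach by 24.5 percentage points and duodenum by 30.4 (two-sided permutation test, p = 2e-05 in both, the smallest found, adjusted p = 9e-05 over 9 tests), and stomach exceeded duodenum by 5.92 points (adjusted p = 0.0222). Unlike the dose tests that follow, these tissue tests did not permute within batch. In vehicle stomach the mean share was lower in batch 2 than in batch 1. The gap between stomach and duodenum within a batch was not tested. The total level of the gene had the same order of tissues.

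In stomach the share was 42.1% ± 4.67 (SD, n = 16) at the high dose, 6.93 points below vehicle (permutation test within sex and batch, p = 0.00052, adjusted p = 0.00156). It was 10.3 points below within batch 1 (permutation p = 0.00279) and 4.01 points below within batch 2 (permutation p = 0.168). At the low dose it was 46.1%, and the difference of -2.91 points did not pass (permutation test, adjusted p = 0.345). Neither did the high dose in duodenum (-2.65 points, adjusted p = 0.110) or in liver (-0.07 points, adjusted p = 0.879). The transcript shares are the submitters' estimated division of reads between overlapping models of 1 gene, they were examined after the data had been seen, and the part of the ribosomal protein share, which moved with the high dose in stomach, was not tested.

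**Figure D5:**
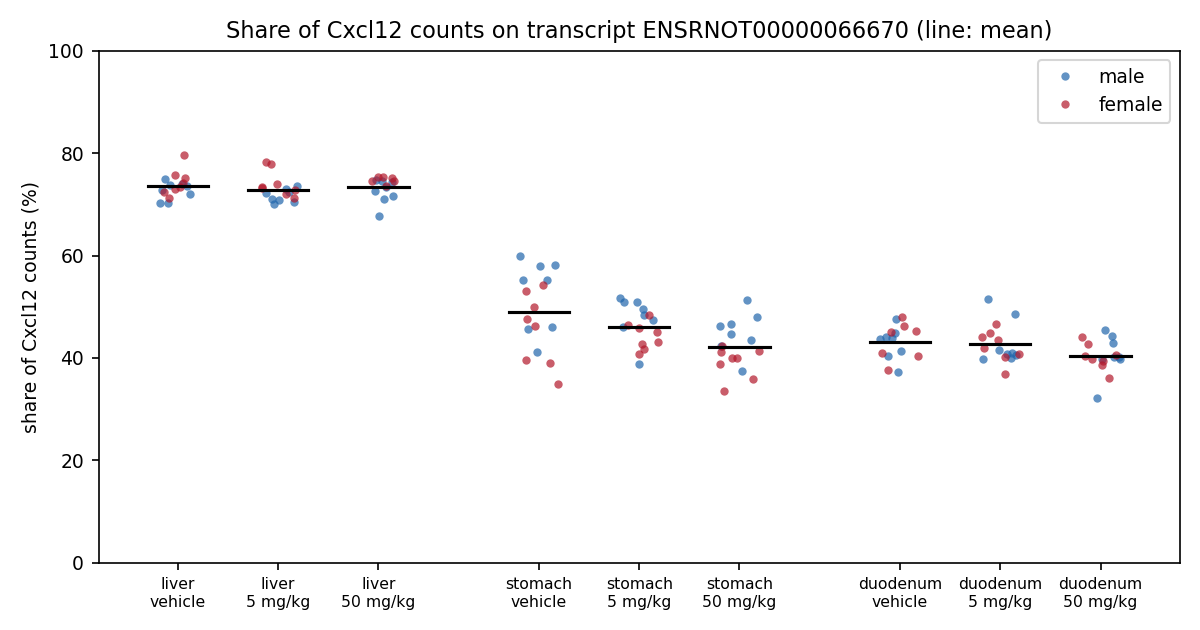
Share of Cxcl12 estimated counts assigned to ENSRNOT00000066670, in percent, by tissue and dose. Each point is 1 library and the line is the mean. Vehicle liver lies near 73.5%, stomach and duodenum near 49.0% and 43.1%, and the high-dose stomach mean is 42.1%.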

How the data were processed

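Rows of the 3 gene tables were taken as the expected (estimated) counts the authors deposited, per the file headers, and the transcript tables likewise hold deposited expected counts. The submitters' processing notes name Salmon 1.10.3, STAR 2.7.11b, Trim Galore 0.6.10 with cutadapt 4.9, UMI-tools 1.1.5, MultiQC 1.28, FastQC 0.12.1 and build mRatBN7.2. Roles, order, annotation release, strand setting and any duplicate removal: not given in the sources used here. If unique molecules were not counted, amplified reads add to the spread at low counts.

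Counts were rounded to whole numbers (a change of at most 0.00064% of a library total). Within each tissue, edgeR 4.0.16 in R 4.3.3 filtered genes (filterByExpr, minimum count 10, minimum total 15), scaled with TMM and fitted sex-by-dose groups plus batch with the quasi-likelihood test. P-values were adjusted by Benjamini-Hochberg over all genes of a tissue, with a threshold of 0.05. Tissues were compared over 47 vehicle libraries with sex and batch as terms and a log2 difference of at least 1. Levels are counts per 1000000 of the library total, fold changes come from the fit, and SE is the log2 change divided by the square root of F. Correlations used residuals of log2 CPM (prior count 2) and 100000 resamples, with Python 3.11.15, numpy 2.4.6 and scipy 1.17.1.

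On simulated counts for the high dose over both sexes, the fit recovered 60, 79 and 71 of 100 genes changed 1.5-fold and 93, 94 and 96 of 100 changed 2-fold in liver (13130 genes), stomach (15140) and duodenum (15189), with 7.83%, 7.49% and 5.65% false calls. The simulated counts were drawn independently for each gene, with no effect of batch, sex or ribosomal protein share. These rates therefore leave out variation that genes share in the real libraries. No 2 libraries held identical values (highest correlation 0.984). Same-numbered libraries of different groups did not deviate together on average (mean correlation -0.01 in liver, 0.04 in stomach and 0.00 in duodenum). The main fit therefore held no pairing by number, and a replicate block was run as an alternative. Same-numbered libraries of different tissues had a mean correlation of 0.08, and the labels do not say that they share an animal.

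The genes named are those called in a comparison, or the 3 with the smallest p where fewer than 3 were called, the leading genes of each tissue by the smaller difference from the other 2, pairs past the threshold, and at most 2 genes of each fixed list. Results of 1 gene are counted but not reported here. The genes described and the lists were chosen with earlier results of these data known. Alternatives were DESeq2 1.42.0, its size factors, limma 3.58.1 (voom with quality weights), no filter, no batch term, a replicate block, 3 surrogate variables (sva 3.50.0), the ribosomal protein share as a covariate, single batches, only the groups compared, and each library left out. The Cxcl12 transcript test and the correlations within batches and clusters were chosen after seeing the data.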

Additional observations from a re-analysis of the deposited data

Results flagged for a closer look

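Among 119 groups of a named chemokine gene, sex, dose and tissue, 11 held 1 library far from the others by Dixon's test at the 95% level, which chance alone gives in about 1 group in 20. In liver these were Cxcl13 at 2.7 CPM in vehicle female replicate 6, and Cxcl10 at 55.1 CPM and Ccl2 at 10.6 CPM in low-dose female replicate 1. In stomach they were Ccl2 at 8.55 CPM and Cx3cl1 at 12.4 CPM in vehicle female replicate 2, Ccr3 at 6.21 CPM in vehicle male replicate 8 and Ccl6 at 24 CPM in low-dose male replicate 7. In duodenum they were Cx3cl1 at 4.75 CPM in high-dose female replicate 5, Ccr9 at 11.6 CPM in low-dose female replicate 6, Ccl6 at 39.9 CPM in vehicle male replicate 1 and Cxcl13 at 10.9 CPM in vehicle male replicate 7. So 2 libraries, low-dose female replicate 1 of liver and vehicle female replicate 2 of stomach, were set apart for 2 genes each. Vehicle male replicate 1 of duodenum was also the highest of 47 libraries for Ccl20 (27.6 CPM), Ccl28 (32), Ackr3 (49.6) and Cx3cl1 (25). In liver the low-dose change differed between females and males by a log2 of 2.51 for Ccl2 and 0.61 for Ccl9, in a test of the difference itself by edgeR.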

How the results depend on the processing

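Calls of single genes or of the Cxcl12 share were lost, with the sign kept, for 13 results in batch 2 alone and 10 in batch 1 alone. Fewer libraries were fitted there. The number was 10 with 3 surrogate variables, 8 with no batch term and 7 with the ribosomal share. With the ribosomal share the call of Ccl2 in high-dose stomach males was also lost, with its sign turned. The cause was not tested unless named. For the sex-by-low-dose test in liver (2 called) the count was 1 with no filter and 1 in batch 2 alone. The gene called in batch 2 alone was neither Ccl2 nor Ccl9. Over all genes (1030 in the main fit) these fits called 558 and 1047. The count was 0 without batch 3, where 796 of all genes were called. It was also 0 with no batch term, the replicate block, 3 surrogate variables, the ribosomal share or batch 1 alone, each with 0 of all genes. For vehicle females against males in liver (6) the count was 3 without batch 3, 3 in batch 1 and 1 in batch 2, where fewer libraries were fitted. Over all genes (2995 in the main fit) these fits called 2662, 947 and 1489. For the high dose in stomach (1) the count was 4 with DESeq2, 4 with voom, 2 with the replicate block and 2 without batch 3. Over all genes (680 in the main fit) these fits called 1025, 1863, 1071 and 734. The count was 0 with no batch term, surrogate variables, the ribosomal share, batch 1 alone or batch 2 alone. Those fits called 4, 0, 1, 2 and 0 of all genes in that order. In stomach males (4) the count was 0 with no batch term, surrogate variables, the ribosomal share, batch 1 alone or batch 2 alone. Those fits called 3, 0, 0, 7 and 0 of all genes, beside 1069 in the main fit. In duodenum (1) the count was 2 with DESeq2 and 2 with the replicate block, beside 3015 and 2073 of all genes (2481 in the main fit). It was 0 with surrogate variables, the ribosomal share or batch 1 alone, each with 0 of all genes. In duodenum males (0) it was 1 with DESeq2 (1010 of all genes). Stomach against duodenum (18 of 37) gave 28 with no filter (of 55 tested, 17 of the 18 among them), 29 with no fold minimum and 11 with a log2 minimum of 2. Leaving out 1 library gave 0 to 3, 2 to 6, 0 to 5, 1 to 6, 1 to 4 and 0 to 2 for these 6 dose and sex comparisons in the order given, and 0 throughout for the others.

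Directions turned for these values. Cxcl10 in liver at the low dose was -0.35 in batch 1 and between -0.071 and 0.67 over fits without 1 library, the lowest without low-dose female replicate 1. Ccl2 in stomach at the high dose was -0.00527 with surrogate variables and -0.085 with the ribosomal share (-0.078 in males), at the low dose -0.034 in batch 1 and in low-dose females -0.25 in batch 1. Ccl2 in duodenum at the high dose was -0.026 with the ribosomal share. The Cxcl12 transcript share differed by 0.23 and 0.81 points in batch 2 of liver at the low and high dose, by 1.63 in batch 2 of stomach and by 0.83 in batch 1 of duodenum at the low dose. Under the replicate block 4 calls were lost. The liver low-dose differences between the sexes were then 2.10 for Ccl2 and 0.61 for Ccl9, against 2.51 and 0.61. Ccr2 between the sexes in vehicle liver was 0.70 against 0.79, and Ccl24 in high-dose stomach males 0.63 against 0.64. The 8 correlated pairs numbered 8 or 9 with the other residuals, the smaller prior count or without batch 3, and 6 by rank. Depth limits genes under about 1 CPM, such as Ccl2 in liver, most.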

Other observations

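The summed level of the 55 chemokine and receptor genes was given no test. In vehicle libraries it was 802 ± 75.7 CPM (SD, n = 8) in male and 866 ± 120 (SD, n = 8) in female liver, 887 ± 127 (SD, n = 8) in male and 828 ± 33.4 (SD, n = 8) in female stomach, and 606 ± 134 (SD, n = 8) in male and 545 ± 99.7 (SD, n = 7) in female duodenum. At the high dose it was 771 ± 156 (SD, n = 8) and 817 ± 98.6 (SD, n = 6) in male and female liver, 927 ± 98.1 (SD, n = 8) and 852 ± 68.2 (SD, n = 8) in stomach, and 681 ± 94.2 (SD, n = 8) and 581 ± 97.7 (SD, n = 8) in duodenum. In liver and stomach Cxcl12 alone, at a median of 352 and 179 CPM, made up much of this sum, together with Ccl9 in liver (348 CPM) and the mucosal ligand Cxcl17 in stomach (340 CPM).

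Neighbouring genes did not always share a tissue. In the chromosome 10 cluster of Ccl2, Ccl7, Ccl11, Ccl12 and Ccl1, Ccl11 was highest in stomach, while Ccl12 and Ccl1 were too low to test in each tissue. In the other chromosome 10 cluster Ccl9 and Ccl6 were both highest in liver, while Ccl5 was lower in stomach than in both other tissues and Ccl3 was not tested. On chromosome 8, Ccr9, Cxcr6 and Xcr1 were called highest in duodenum, and their neighbour Ccr2 was also highest there but under the fold asked for (log2 difference -0.95 for stomach and -0.93 for liver against duodenum).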
